A study of Homo sapiens with 6 samples.

Results

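The 37 genes of the human mitochondrial genome were followed in 6 RNA-sequencing libraries from Daoy cells, an established line from a cerebellar medulloblastoma. They were taken as every gene on chromosome M of GENCODE release 29 with a symbol that starts with MT-, and all 37 were found among the 60554 gene identifiers of the files. They comprise 13 protein-coding genes, 2 ribosomal RNA (rRNA) genes and 22 transfer RNA (tRNA) genes. The plus strand of the annotation holds 28 of them and the minus strand 9, which are MT-ND6 and 8 tRNA genes. The cells overexpressed ZBTB7B from a lentivirus, as the wild-type protein in 3 libraries (WT) and as the zinc-finger mutant R363L in the other 3 (ZFmut). Cells received either virus at an MOI (multiplicity of infection) of 15, stayed with it for 72 hr and were kept for 4 days in medium with 10% serum. Every library therefore came from transduced cells of this line, which keep their own ZBTB7B gene, and no library without the transgene was among the samples. ZBTB7B is a zinc-finger transcription factor of the nucleus, and the comparison asks which transcripts differ between cells given its wild-type and its zinc-finger mutant form.

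Mitochondrial DNA is a small circle that is transcribed from both strands into long precursor RNAs. Most protein and rRNA genes are bordered by tRNA genes, and excision of the tRNAs by nuclear-encoded nucleases releases the messenger RNAs and rRNAs. The 13 proteins are core subunits of complexes I, III, IV and V of the respiratory chain and ATP synthase, and the rRNAs and tRNAs serve the ribosome that makes them inside the organelle. The minus-strand genes are cut from a precursor of their own, which leaves MT-ND6 as the only messenger RNA of that strand.

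Gene counts per library ran from 22236214 to 102730428, and levels below are counts per 1000000 TMM-normalised counts (CPM). The labels do not state whether the replicates were grown separately, and p-values therefore reflect only how these samples vary, possibly for technical reasons. ZBTB7B itself stood at 862 to 950 CPM with WT and 546 to 626 CPM with ZFmut, summed over the transgene and the cell's own gene. It was called higher with WT, by 0.65 ± 0.06 as log2 (SE, edgeR adjusted p = 1.39e-06). The level of ZBTB7B and its form therefore differ together between the groups and cannot be told apart. Of 14 markers of medulloblastoma and neural cells, 12 reached at least 1 CPM in every library, while ATOH1 and NEUROD1 were close to 0. In this list 2 were called higher with WT (GLI1 at 0.34 and PTCH1 at 0.14 as log2) and 3 lower (SOX2 at -0.84, NES at -0.45 and SFRP1 at -0.21). Beside these and the marker calls below, 18.4% of all genes tested were called higher and 17.2% lower. None of 5 blood cell markers or 3 endothelial markers reached 1 CPM in every library, and the highest value of any blood marker was 0.5 CPM. The endothelial marker PECAM1 was at 0.302 ± 0.128 CPM with WT and 1.37 ± 0.109 CPM with ZFmut (SD, n = 3), a call of lower with WT. Of 6 glial markers 2 were called higher (AQP4 and MBP) and 2 lower (GFAP and OLIG2), and their sum was 8.59 to 9.21 CPM with WT and 8.15 to 8.63 CPM with ZFmut. Summed markers that connective tissue and epithelium also use differed between the groups. The 4 fibroblast markers, led by COL1A1, added up to 2422 to 3274 CPM with WT and 4148 to 4798 CPM with ZFmut, and the 4 epithelial markers, nearly all from KRT8 and KRT18, to 355 to 395 and 540 to 664 CPM. In each of these lists 2 markers were called lower with WT and 1 higher, which was COL3A1 (log2 difference 0.34) among the fibroblast markers and CDH1 (2.69, from 0.471 to 2.91 CPM) among the epithelial ones. Their part in the mitochondrial differences was not tested.

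Of the 37 genes, 17 had at least 1 read and 20 had none in any library. The 20 were all tRNA genes, 13 on the plus strand (MT-TV, MT-TL1, MT-TI, MT-TM, MT-TW, MT-TD, MT-TK, MT-TG, MT-TR, MT-TH, MT-TS2, MT-TL2 and MT-TT) and 7 on the minus strand (MT-TQ, MT-TA, MT-TN, MT-TC, MT-TY, MT-TS1 and MT-TE). The annotation leaves little room between mitochondrial genes, and the sequences below show tRNA genes in different surroundings. MT-TF and MT-TP, the tRNA genes for phenylalanine and proline, each border the gene-free control region and were the only tRNA genes with reads. MT-TR, the tRNA gene for arginine, lies flush between MT-ND3 and MT-ND4L and had 0 reads, which allows up to 0.135 CPM in the smallest library and 0.0292 CPM in the largest. In these tRNA sequences, from GENCODE release 29 on GRCh38, capitals mark the anticodon.
MT-TF, chrM:577-647, plus strand: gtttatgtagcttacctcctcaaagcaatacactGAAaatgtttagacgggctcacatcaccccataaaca
MT-TR, chrM:10405-10469, plus strand: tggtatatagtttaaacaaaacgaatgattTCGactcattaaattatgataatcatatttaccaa
MT-TP, chrM:15956-16023, minus strand: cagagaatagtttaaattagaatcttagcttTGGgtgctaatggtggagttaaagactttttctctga

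The tRNA genes are 59 to 75 bases long, and 7 of the 22, MT-TR among them, have no free base on either side. MT-TF has 576 bases without a gene before it, and no annotated gene follows MT-TP. Beside the other 20 the longest free stretch is 31 bases, between MT-TN and MT-TC. Reads that fit more than 1 gene were set apart in the files and made up 7.71 to 8.08% of all entries, so a read that runs from a tRNA gene into its neighbour is absent from the gene counts. Its part in the zeros was not tested.

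A second layout concerns protein genes that share bases. MT-ATP8 and MT-ATP6 are read from a single messenger RNA in different reading frames, and the last 46 of the 207 bases of MT-ATP8 are also the first 46 of MT-ATP6. The shared stretch is printed with the start codon of MT-ATP6 and the stop codon of MT-ATP8 in capitals.
MT-ATP8 and MT-ATP6 overlap, chrM:8527-8572, plus strand: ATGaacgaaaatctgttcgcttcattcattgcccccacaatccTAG

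MT-ND4L and MT-ND4 share 7 bases in the same way. Per base not shared with another gene, MT-ATP8 was counted at 0.0267 ± 0.00051 times the level of MT-ATP6 with WT and 0.0259 ± 0.00061 times with ZFmut (SD, n = 3). The ratio for MT-ND4L over MT-ND4 was 0.309 ± 0.00314 with WT and 0.325 ± 0.0303 with ZFmut. Reads that fit both genes of a pair were set apart in the files, and these ratios do not correct for their loss. Both genes of a pair are read from 1 messenger RNA, so the counted levels of MT-ATP8 and MT-ND4L are not levels of separate RNAs. In ZFmut replicate 3 the second ratio was 0.359, above the other 5 libraries.

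The mitochondrial genome took 4.02, 4.00 and 3.95% of gene counts in the WT libraries, given here and below in the order of replicates 1 to 3, and 3.40, 3.39 and 3.25% in the ZFmut libraries. Every WT library was above every ZFmut library, and the means differed by 0.646 percentage points (exact permutation test, two-sided, p = 0.1, the smallest that 3 libraries against 3 can give). Protein-coding genes held 90.1 to 90.7% of the mitochondrial counts, rRNA genes 9.28 to 9.9% and tRNA genes 0.0277 to 0.0378%. MT-CO1 alone held 25.9 to 27.7%. MT-ND6 and the minus-strand tRNA genes together held 1.65 to 1.96%, although the library kit does not mark the strand and reads antisense to a gene cannot be told from its own.

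**Figure D1:**
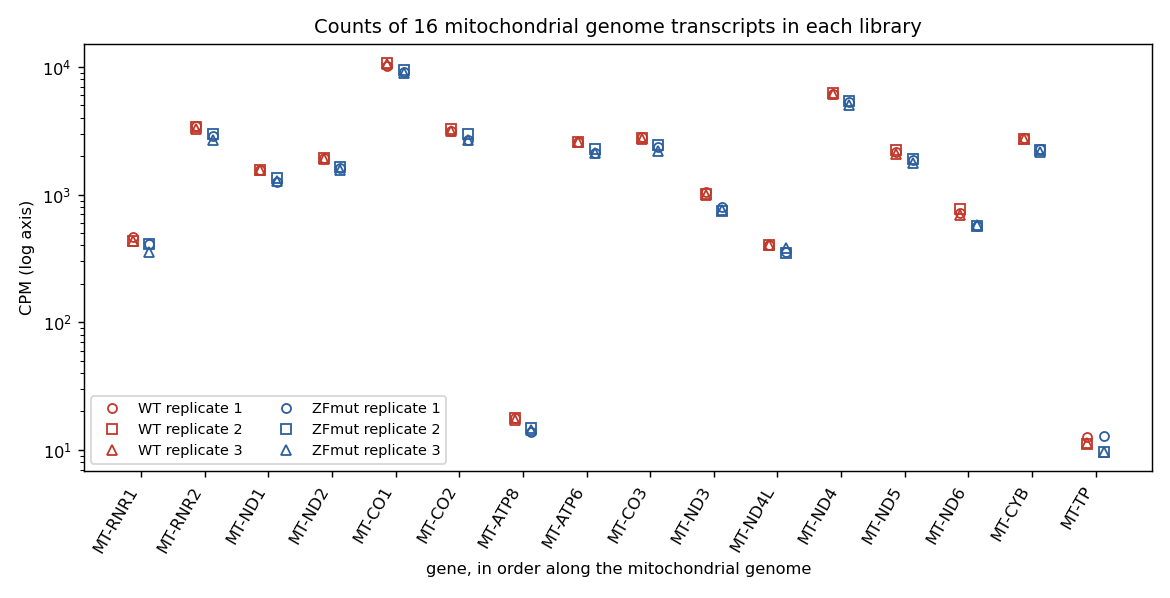
CPM on a log axis (vertical) for the 16 mitochondrial transcripts that passed the low-count filter, in order along the genome (horizontal). Each point is 1 library, WT in red and ZFmut in blue, with a marker per replicate number. MT-CO1 lies between 9046 and 10685 CPM, and no library of MT-ATP8 or MT-TP exceeds 17.7 CPM.

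Per kilobase of gene, the order of the levels was nearly the same in both groups. With ZFmut it ran from MT-CO1 at 5987 ± 162 CPM per kb (SD, n = 3) through MT-CO2 at 4092 ± 275, MT-ND4 at 3838 ± 140, MT-ATP6 at 3195 ± 112 and MT-CO3 at 2992 ± 160 CPM per kb. MT-ND3 followed at 2231 ± 88.95, then MT-CYB at 1950 ± 54.9 and MT-RNR2 at 1822 ± 99.3 CPM per kb. The lower levels were those of MT-ND2 (1542 ± 49.4), MT-ND1 (1353 ± 49.6), MT-ND4L (1220 ± 67.9), MT-ND6 (1093 ± 14.5) and MT-ND5 (1019 ± 36.1 CPM per kb). Among neighbours in this order, the libraries of MT-CO2 and MT-ND4 overlapped, as did those of MT-ATP6 and MT-CO3 and those of MT-CYB and MT-RNR2. With WT the order was the same except that MT-ND6 at 1383 ± 77.0 and MT-ND4L at 1355 ± 2.9 CPM per kb changed places, and these were the only neighbours that overlapped. MT-RNR1 stood far below MT-RNR2 in both groups, at 467 ± 20.9 against 2153 ± 60.6 CPM per kb with WT and 409 ± 31.6 against 1822 ± 99.3 with ZFmut, although both rRNAs are cut from the same precursor.

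Across the genome the WT libraries were higher. The low-count filter kept 16 of the 37 genes, and edgeR's quasi-likelihood test with Benjamini-Hochberg adjustment over 18683 genes called 15 of them higher with WT and 0 lower, at an adjusted p threshold of 0.05. Over all genes tested, 18.4% were called higher and 17.2% lower. The 15 were all 13 protein-coding genes and both rRNA genes, and MT-TP did not pass. The median log2 difference of the 16 was 0.24, from 0.15 to 0.41, beside a median of 0.0042 over all genes tested. Every WT library was above every ZFmut library for these 15 genes, as it was for 24.4% of all genes tested. These levels are relative to all counts of a library. In bulk samples, more mitochondrial DNA or more mitochondria per cell, more RNA per template and less RNA from nuclear genes cannot be told apart.

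The differences were small. When the null was a fold change of up to 1.5, edgeR called 0 of the 37 genes and 2.32% of all genes higher. They were also smaller when trends of each library on GC content and gene length were taken out as offsets. With these offsets 12 of the 16 were called higher, including 10 of 13 protein-coding genes and both rRNA genes, and the median was 0.15. Over all genes 21.4% were then called higher and 20% lower. MT-RNR1 went from 0.19 to 0.12, MT-RNR2 from 0.24 to 0.14, MT-ND2 from 0.27 to 0.17, MT-ND4 from 0.22 to 0.14 and MT-ATP6 from 0.25 to 0.16, and these 5 still passed. With offsets whose median was not set to 0, an alternative chosen after seeing the data, 7 of the 16 were called higher beside 18.2% of all genes.

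**Figure D2:**
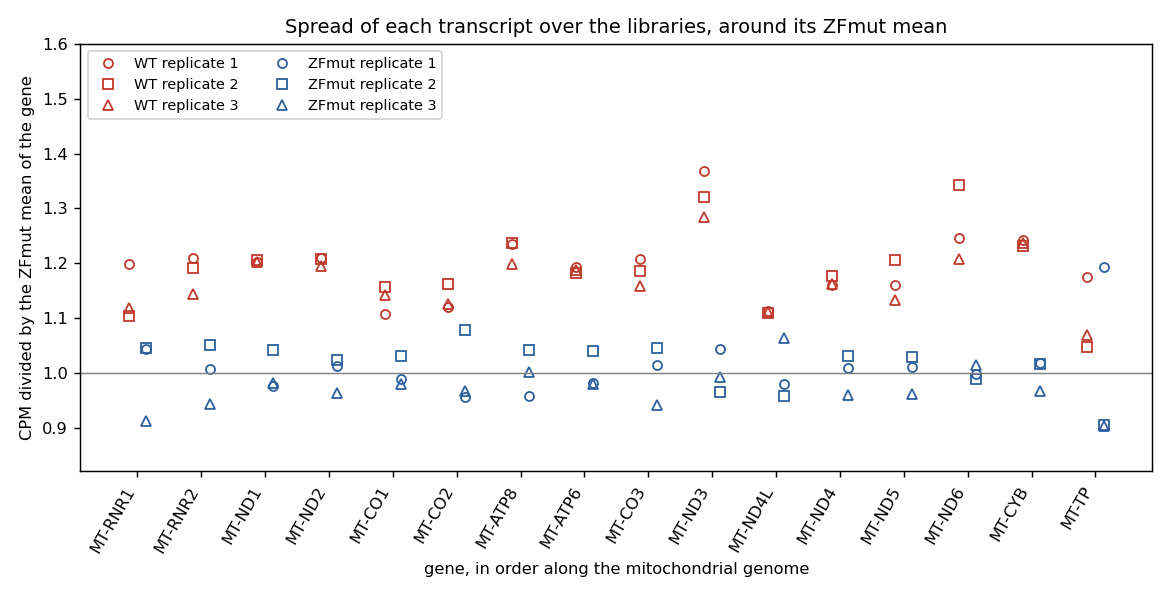
CPM of each library divided by the mean of the 3 ZFmut libraries for that gene (vertical, linear), for the 16 tested transcripts in genome order (horizontal), with WT in red and ZFmut in blue. Apart from MT-TP, every gene has its 3 WT points above its 3 ZFmut points, with the widest gap for MT-ND3, where the lowest WT library was 1.23 times the highest ZFmut library.

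Complex I, the NADH dehydrogenase at which electrons enter the chain, has 7 mitochondrially encoded subunits, and all 7 were higher with WT, with a median log2 difference of 0.27. MT-ND3 (chrM, 10059 to 10404, plus strand) had the largest difference of the 16 tested genes. It stood at 1057, 1020 and 992 CPM with WT and at 806, 745 and 765 CPM with ZFmut, so that no library of one group reached the other. The fold was 1.32, or 0.41 ± 0.05 as log2 (SE, edgeR adjusted p = 2.06e-05). MT-ND6 (14149 to 14673, minus strand) came next, at 715, 771 and 693 CPM with WT and 573, 567 and 582 CPM with ZFmut. Its ZFmut libraries lay close together, and its WT replicate 2 was highest. Its log2 difference was 0.34 ± 0.05 (SE, edgeR adjusted p = 0.000148).

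MT-ND1 (3307 to 4262) was at 1554, 1561 and 1554 CPM with WT against 1262, 1348 and 1270 CPM with ZFmut. MT-ND2 (4470 to 5511) was at 1942, 1939 and 1920 CPM against 1626, 1645 and 1548 CPM. Both genes were higher by 0.27 on the log2 scale, and their WT libraries were nearly equal. MT-ND4 (10760 to 12137), the most abundant complex I messenger, was at 6133, 6226 and 6141 CPM against 5337, 5454 and 5077 CPM. MT-ND5 (12337 to 14148), the longest gene of the genome, was at 2141, 2224 and 2090 CPM against 1865, 1899 and 1773 CPM. Each of these last genes was higher by 0.22 with an SE of 0.04 and 0.05.

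MT-ND4L (10470 to 10766) had the smallest difference among the protein-coding genes and the least stable call. It was at 403, 402 and 402 CPM in the WT libraries and at 355, 347 and 385 CPM in the ZFmut libraries, with ZFmut replicate 3 close to the WT level. The log2 difference was 0.15 ± 0.05 (SE, edgeR adjusted p = 0.0371). It no longer passed with median-of-ratios factors (0.14, edgeR adjusted p = 0.0543), with no low-count filter (0.14, 0.0654) or with GC and length offsets (0.06, 0.387). It also failed without WT replicate 1, 2 or 3 and without ZFmut replicate 1 or 2 (edgeR adjusted p from 0.0959 to 0.116).

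Complex III holds a single mitochondrially encoded subunit, cytochrome b. MT-CYB (14747 to 15887) was at 2764, 2739 and 2751 CPM with WT and at 2263, 2259 and 2153 CPM with ZFmut. The groups were far apart for the spread within them, and the log2 difference was 0.31 ± 0.04 (SE, edgeR adjusted p = 7.45e-05).

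Complex IV, cytochrome c oxidase, takes its catalytic core from MT-CO1, MT-CO2 and MT-CO3. MT-CO1 (5904 to 7445) was the most abundant mitochondrial transcript, at 10218, 10685 and 10534 CPM with WT and 9135, 9517 and 9046 CPM with ZFmut, higher by 0.18 ± 0.04 (SE, edgeR adjusted p = 0.00288). MT-CO2 (7586 to 8269) was at 3133, 3251 and 3152 CPM against 2676, 3015 and 2706 CPM. Its ZFmut replicate 2 was nearest to the WT libraries. The MT-CO2 difference of 0.18 ± 0.05 (SE, edgeR adjusted p = 0.0114) missed the threshold with GC and length offsets (0.12, adjusted p = 0.06), without WT replicate 2 (0.17, 0.0557), and without ZFmut replicate 1 (0.14, 0.0609) or 3 (0.16, 0.0719). MT-CO3 (9207 to 9990) was at 2831, 2782 and 2717 CPM against 2379, 2451 and 2207 CPM and was higher by 0.24 ± 0.05 (SE, edgeR adjusted p = 0.00127).

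Complex V, the ATP synthase, has MT-ATP6, a subunit of its proton channel, and the small MT-ATP8. MT-ATP6 (8527 to 9207) was at 2597, 2571 and 2584 CPM with WT and 2134, 2264 and 2129 CPM with ZFmut, higher by 0.25 ± 0.04 (SE, edgeR adjusted p = 0.000535). MT-ATP8 (8366 to 8572) rested on 308 to 1464 reads per library. It was at 17.7, 17.7 and 17.2 CPM against 13.7, 14.9 and 14.4 CPM, higher by 0.29 ± 0.07 (SE, edgeR adjusted p = 0.00479). Differences of these genes, which share a messenger RNA, were within an SE of each other. The MT-ATP8 call ended with GC and length offsets (0.17, edgeR adjusted p = 0.102).

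Some of these counts are less certain because the nuclear genome carries copies of mitochondrial DNA. Of 388 annotated pseudogenes of chromosome M genes, 247 had no read, and 7 passed the low-count filter. MTATP6P1 (GRCh38 chromosome 1, 633696 to 634376) reached 210 ± 3.44 CPM with WT and 185 ± 13.1 CPM with ZFmut (SD, n = 3), and it was the 1 pseudogene called, higher by 0.18 ± 0.06 (SE, edgeR adjusted p = 0.0271). MTCO1P12 (chromosome 1, 631074 to 632616) was at 92.5 ± 4.15 and 93.2 ± 6.79 CPM and did not pass (log2 difference -0.01). MTND2P28 (chromosome 1, 629640 to 630683), named after its values were seen, was at 63.0 ± 4.81 and 52.1 ± 10.3 CPM, a difference of 0.30 ± 0.11 that did not pass (SE, edgeR adjusted p = 0.0516). All 3 lie in a stretch of chromosome 1 that resembles mitochondrial DNA closely. How the authors' aligner divided reads between these copies and MT-ATP6, MT-CO1 or MT-ND2 is not given in the sources used here, and reads aligned to several places are outside the gene counts.

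Both rRNAs of the mitochondrial ribosome were higher with WT as well. MT-RNR2, the 16S rRNA (1671 to 3229), was at 3435, 3382 and 3251 CPM with WT and at 2858, 2987 and 2678 CPM with ZFmut. No library overlapped, and the log2 difference was 0.24 ± 0.05 (SE, edgeR adjusted p = 0.00150). MT-RNR1, the 12S rRNA (648 to 1601), was at 468, 431 and 437 CPM against 407, 409 and 356 CPM. Its difference of 0.19 ± 0.06 (SE, edgeR adjusted p = 0.0249) lost its call without WT replicate 1 (0.14, edgeR adjusted p = 0.134), WT replicate 3 (0.20, 0.0562) or ZFmut replicate 3 (0.13, 0.135). The ratio of rRNA to protein-coding counts did not separate the groups. Its log2 value was -3.19, -3.25 and -3.27 with WT and -3.22, -3.21 and -3.29 with ZFmut (exact permutation test, two-sided, p = 0.9).

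Counts of rRNA depend on how a library was made, and the labels name a kit and 2 micrograms of total RNA but no step that selects or removes RNA. Among 12 nuclear RNAs listed beforehand as non-polyadenylated, 5 had no read in any library (RN7SL1, RN7SL2, RMRP, RPPH1 and SCARNA2). RN7SK found no match among the identifiers. The others added up to 77.8 to 85.5 CPM with WT and 62.2 to 66.97 CPM with ZFmut. Most of it came from the histone gene HIST1H1C, at 61.4 ± 2.22 CPM with WT and 48.2 ± 0.333 CPM with ZFmut (SD, n = 3). Whether the histone reads came from polyadenylated RNA was not tested. HIST1H1C, HIST1H2AC and HIST1H4H were called higher with WT and 0 of the list lower, beside 18.4 and 17.2% over all genes. The part of these RNAs in the mitochondrial differences was not tested.

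The tRNA class could be compared only through MT-TP. It had 364, 636 and 361 reads with WT and 286, 232 and 983 with ZFmut, which is 12.6, 11.2 and 11.4 CPM against 12.7, 9.67 and 9.64 CPM. The highest library was ZFmut replicate 1, so the groups overlapped. The log2 difference was 0.15 ± 0.11 (SE, edgeR adjusted p = 0.285). Without ZFmut replicate 1 it was 0.26 and passed (edgeR adjusted p = 0.0248). MT-TF had 3 reads in WT replicate 2, 4 in ZFmut replicate 3 and 0 in the other libraries, and the libraries with reads were the deepest of their groups.

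**Figure D3:**
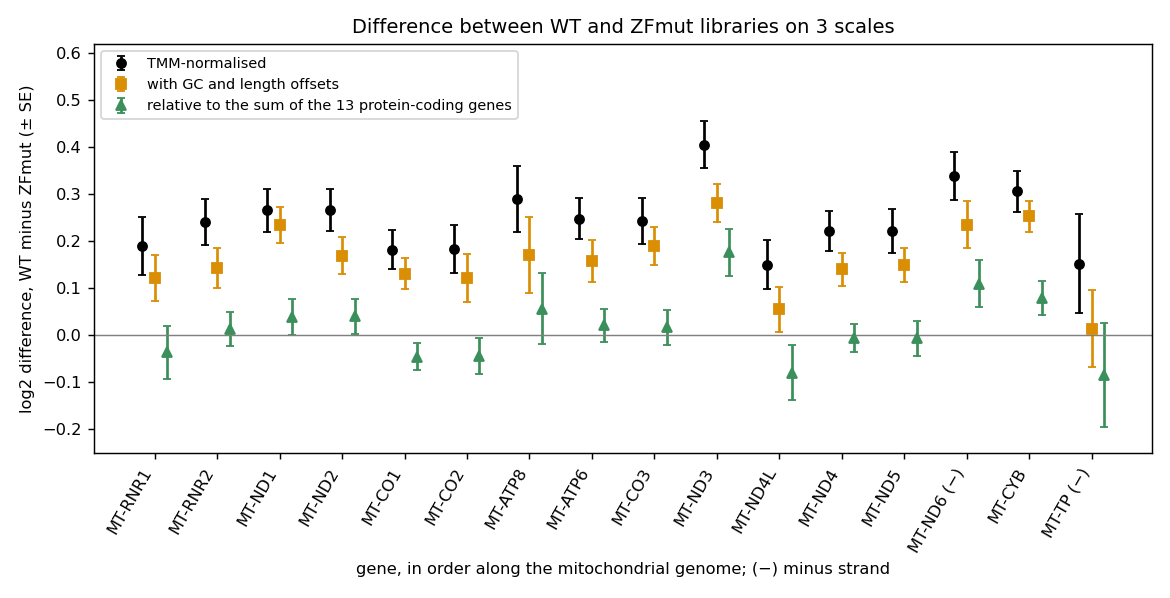
Log2 difference, WT minus ZFmut, with its SE (vertical) for the 16 tested transcripts in genome order (horizontal). Black points are TMM-normalised values, orange points add GC and length offsets, and green points set the library size to the summed counts of the 13 protein-coding genes. On the black scale all 16 points are above 0, and on the green scale MT-ND3 stands out above 0.

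Whether members differed among themselves was tested by setting each library's size to its summed counts of the 13 protein-coding genes, each gene included in that sum. On this scale edgeR called 1 of the 16 genes higher and 0 lower, while 6.8% of all genes tested were called higher and 45% lower, since nuclear genes were lower relative to mitochondrial ones. The gene was MT-ND3, with a relative log2 difference of 0.18 ± 0.05 (SE, edgeR adjusted p = 0.00795). This adjustment ran over all genes tested, and the many nuclear genes called on this scale make its threshold easier to pass. An adjustment over the 16 genes alone was not made. MT-ND3 passed in all 13 alternative fits, made with edgeR, DESeq2 or limma (adjusted p from 1.75e-05 to 0.0404), but none of these used GC and length offsets. With such offsets on the whole-library scale, MT-ND3 stood less apart. It was then at 0.28, beside MT-CYB at 0.25, MT-ND6 at 0.24 and MT-ND1 at 0.23. Relative to the 13-gene sum, MT-ND6 at 0.11 ± 0.05 (SE, edgeR adjusted p = 0.0800) and MT-CYB at 0.08 ± 0.04 (SE, 0.0776) did not pass. MT-CYB passed when ZFmut replicate 1 was left out (edgeR adjusted p = 0.0287) and when genes had to reach 5 CPM in 3 libraries (0.0337). MT-ND4L at -0.08 ± 0.06 (SE, edgeR adjusted p = 0.276) and MT-CO1 at -0.04 ± 0.03 (SE, 0.2) had the lowest values among the protein-coding genes, with MT-CO2 at -0.04 as well.

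Sums by strand and by complex were compared as ratios within each library. Strand here is that of the annotated gene, since the library kit does not mark the strand of a read. The log2 ratio of MT-ND6 to the plus-strand protein-coding sum was -5.61, -5.52 and -5.65 with WT and -5.70, -5.77 and -5.64 with ZFmut, with ZFmut replicate 3 inside the WT range (exact permutation test, two-sided, p = 0.2). The MT-CYB share of the protein-coding counts was 7.79, 7.57 and 7.74% with WT and 7.44, 7.16 and 7.26% with ZFmut, without overlap. Complex IV genes took 45.6, 46.2 and 46.1% with WT and 46.6, 47.5 and 47.1% with ZFmut, also without overlap and in the other direction. Both of these gave an exact permutation p = 0.1, the smallest possible. Complex I genes took 38.1 to 39.3% and complex V genes 7.06 to 7.36% over all libraries, with overlap between groups. Over the 9 shares and ratios computed, the smallest Benjamini-Hochberg adjusted p was 0.3.

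**Figure D4:**
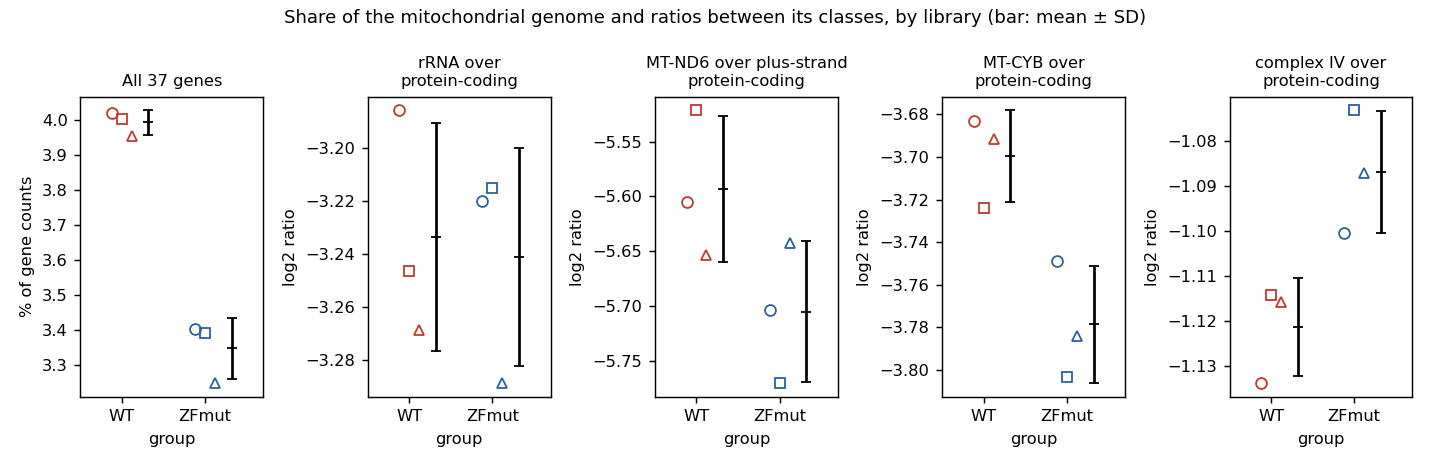
Values per library (points, WT red, ZFmut blue) with the mean and SD of each group (black bars), for the share of gene counts on the mitochondrial genome in percent and for 4 log2 ratios between sums of its genes. Axes do not start at 0. The share and the MT-CYB ratio are higher in all WT libraries, the complex IV ratio is lower in all of them, and the rRNA and MT-ND6 ratios overlap.

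Properties of the genes were set beside the size of the difference as a description. Over the 15 protein-coding and rRNA genes, which share their libraries, the correlation of the log2 difference with GC content was r = -0.486 (Spearman -0.368), with length -0.325 (-0.286) and with position along the genome 0.337 (0.275). Of the 13 protein-coding genes, 6 have a length that is not a multiple of 3, because their stop codon is completed only when the RNA is polyadenylated. MT-ND3 is 1 of these and MT-ND4L is not, as their last bases show, with the incomplete or complete stop codon in capitals.
MT-ND3 end, chrM:10392-10404, plus strand: gactgaaccgaaT
MT-ND4L end, chrM:10755-10766, plus strand: ctccaatgcTAA

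The median log2 difference was 0.27 for the 6 genes with an incomplete stop codon (0.22 to 0.41) and 0.22 for the other 7 (0.15 to 0.34), so the ranges overlapped.

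Nuclear genes that maintain, transcribe, process and translate the mitochondrial genome were called lower with WT more often than higher. Of 132 such genes tested, 9 (6.82%) were called higher and 36 (27.3%) lower with WT, beside 18.4 and 17.2% over all genes, and their median log2 difference was -0.06. With GC and length offsets 13 were higher and 44 lower, beside 21.4 and 20% over all genes. POLRMT, the mitochondrial RNA polymerase, was lower, at 298 ± 30.7 CPM with WT and 382 ± 40.8 CPM with ZFmut (SD, n = 3), or -0.36 ± 0.08 as log2 (SE, edgeR adjusted p = 0.00337). It was the 1 member called among 8 transcription genes. TFAM, which packages mitochondrial DNA and opens its promoters, was at -0.02 ± 0.06 (SE, edgeR adjusted p = 0.798) and TFB2M, which melts promoters, at -0.10 ± 0.06 (SE, 0.222). With GC and length offsets TFAM was at -0.15 (edgeR adjusted p = 0.00364) and TFB2M at -0.20 (0.00288), and both passed.

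Of 18 genes of mitochondrial DNA replication and maintenance, 2 were higher and 9 lower. POLG, the replicative polymerase, was lower, at -0.41 ± 0.05 (SE, edgeR adjusted p = 2.41e-05). LIG3, a DNA ligase, was higher by 0.38 ± 0.05 (SE, edgeR adjusted p = 2.07e-05) and TK2, the mitochondrial thymidine kinase, by 0.49 ± 0.07 (SE, 9.02e-05). Of 17 genes of RNA cleavage and end processing, 0 were higher and 2 (11.8%) lower, a smaller share than the 17.2% over all genes. With GC and length offsets 2 were higher and 6 lower. The 2 called lower without offsets were ELAC2, the nuclease that cuts tRNA 3′ ends, at -0.23 ± 0.05 (SE, edgeR adjusted p = 0.00230), and TBRG4, a FASTK-family RNA-binding protein, at -0.25 ± 0.06 (SE, 0.00371).

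Among 7 genes of messenger stability and decay, 1 was higher and 1 lower. SLIRP, the partner of LRPPRC in keeping mitochondrial messengers stable, was lower, at 60.1 ± 1.91 CPM with WT and 72.5 ± 7.57 CPM with ZFmut (SD, n = 3). Its log2 value was -0.27 ± 0.07 (SE, edgeR adjusted p = 0.00600), whereas LRPPRC was at 0.01 ± 0.05 (SE, 0.881; -0.11 and 0.0274 with GC and length offsets). C6orf203 was higher at 0.30, a call lost in at least 1 fit that left out a library (highest edgeR adjusted p = 0.0766). Of 21 tested genes of rRNA modification and ribosome assembly, 0 were higher and 7 lower, among them MRM1 at -0.36, MPV17L2 at -0.32 and RPUSD3 at -0.26.

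Of 14 tRNA modification genes, 1 was higher and 4 lower, with QTRT1 at -0.28 and PUS1, a pseudouridine synthase, at -0.26. NSUN3, which modifies the methionine tRNA, was higher at 0.36 and lost its call in at least 1 fit without a library (highest edgeR adjusted p = 0.0625). Of 22 genes that charge mitochondrial tRNAs, 0 were higher and 6 lower, with AARS2 at -0.35, PARS2 at -0.37 and CARS2 at -0.27, the synthetases for alanine, proline and cysteine. With GC and length offsets 2 of the 22 were higher and 9 lower. Of 13 translation factors, 1 was higher and 3 lower. TUFM, the elongation factor, was at -0.29, OXA1L, which inserts new subunits into the inner membrane, at -0.17, and the initiation factor gene MTIF3 was higher at 0.42. The OXA1L call was lost in at least 1 fit without a library (highest edgeR adjusted p = 0.0863).

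Regulators of mitochondrial biogenesis split, with 4 of 12 higher and 3 lower. PPARGC1A, a coactivator that promotes biogenesis, was higher at 12.97 ± 1.16 against 9.25 ± 0.634 CPM (SD, n = 3), which is 0.49 ± 0.09 on a log2 scale (SE, edgeR adjusted p = 0.000720). The more abundant PPRC1 was lower, at 120 ± 3.6 against 153 ± 6.16 CPM (SD, n = 3), or -0.35 ± 0.05 (SE, edgeR adjusted p = 0.000115). PPARGC1B was at -0.16 ± 0.07 and did not pass (SE, edgeR adjusted p = 0.0890). GABPA, the DNA-binding subunit of a factor that drives many nuclear genes of the organelle, was higher by 0.41 ± 0.06 (SE, edgeR adjusted p = 1e-04), and GABPB2, a partner subunit, by 0.80 ± 0.08 (SE, 3.93e-06). PPARA, a receptor that drives fatty acid oxidation genes, was lower at -0.49 ± 0.06 (SE, edgeR adjusted p = 4.52e-05). With GC and length offsets 12 of the called genes named here moved by more than 1.5 times and still passed. They were POLRMT (-0.18), ELAC2 (-0.14), TBRG4 (-0.11), MRM1 (-0.20), MPV17L2 (-0.16), RPUSD3 (-0.14), QTRT1 (-0.12), PUS1 (-0.10), AARS2 (-0.19), TUFM (-0.14), NSUN3 (0.23) and GABPA (0.26).

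**Figure D5:**
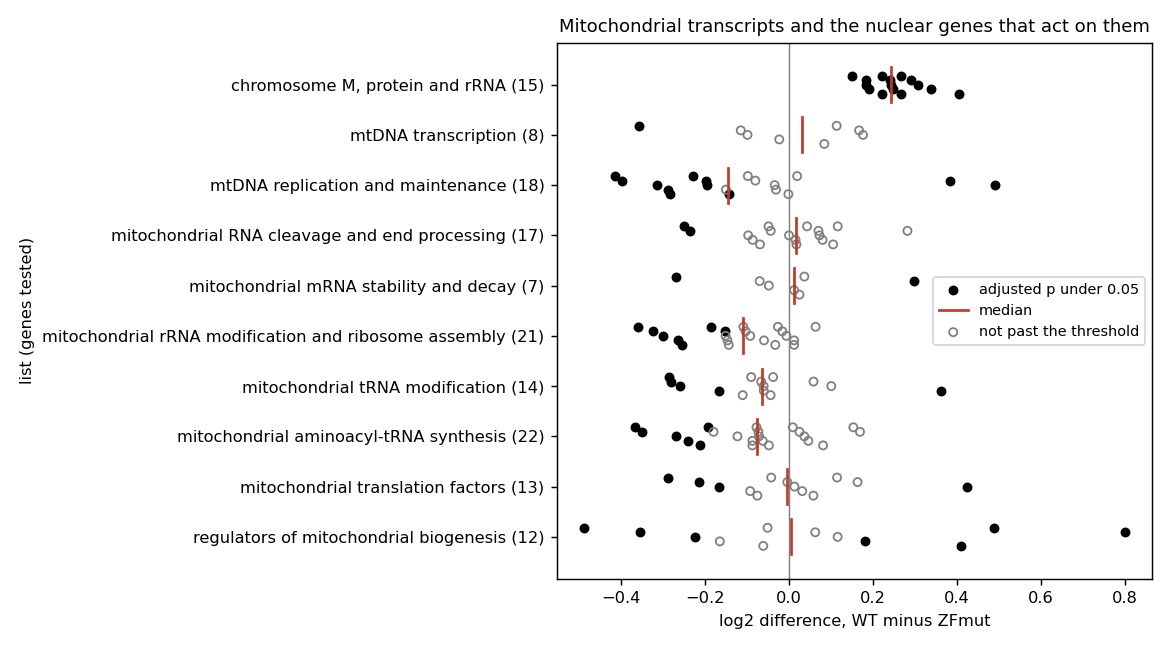
Log2 difference, WT minus ZFmut (horizontal), of the 15 protein-coding and rRNA genes of the mitochondrial genome (top row) and of 9 lists of nuclear genes that act on it (other rows, with the number tested). Each point is a gene, filled where its adjusted p was under 0.05, and red bars are medians. All 15 mitochondrial genes are right of 0, and most filled points of the nuclear lists are left of it.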

How the data were processed

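Each library's deposited file gives raw read counts by Ensembl gene. The submitters' processing notes name the build GRCh38 and the tools HTSeq, cutadapt, DESeq2 and TopHat2 2.0.9. Their order, the annotation release and the strand setting used in counting were not given in the sources used here. Library sizes and tests used gene rows only, without the 5 summary lines of each file; reads aligned to several places made up 16.1 to 19.4% of all entries and reads outside genes 5.04 to 6.56%. Identifiers were matched to GENCODE 29 without their version (56996, or 94.1%); all 37 members matched with it.

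Fits used edgeR 4.0.16 in R 4.3.3 over all 18683 genes that passed filterByExpr, with TMM factors, no covariates and two-sided quasi-likelihood tests. Log2 differences are WT minus ZFmut. GC and length offsets were loess trends (span 0.5) of log2 CPM per library, with a median of 0. Alternatives were median-of-ratios and upper-quartile factors, DESeq2 1.42.0, limma-voom (limma 3.58.1), other filters, nuclear-only library sizes, thinning, a replicate block and each library left out. Offsets that were not centred were added after seeing the data. Only the main, relative, DESeq2 and limma-voom fits were tried on simulated counts. Those counts had the same spread between replicates set for every gene and no GC or length trend, which these libraries have. All 37 members are named; of each nuclear list up to 3 called genes with the smallest p are, plus 6 fixed ones, POLRMT, TFAM, TFB2M, LRPPRC, SLIRP and PPARGC1A. PPRC1 and PPARGC1B were named in addition, after their values were seen. The members and lists were chosen with earlier results of these data known. WBSCR16 and RN7SK found no match. Replicates of a group differed by more than sampling noise in every pair (chi-square of 3.16 to 7.17 per degree of freedom).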

Additional observations from a re-analysis of the deposited data

How the results depend on the processing

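The 13 protein-coding genes had log2 differences above 0 in all 20 alternative fits on the TMM or another whole-library scale; relative to the 13-gene sum, some changed sign, as given below. With a minimum fold change of 1.5, 0 mitochondrial genes were called in any class or strand, and 433 genes were called higher and 272 lower over all genes, with 0 and 0 in the nuclear lists. With offsets that were not centred, 7 of the 37 genes were called higher (7 protein-coding, 0 rRNA, 6 on the plus strand). In that fit 60 nuclear-list genes were lower, beside 4464 of all 18683 genes tested, and the median of all genes moved to -0.035. MT-TP was then at -0.020, and at -0.0099 with the replicate block and GC and length offsets together. When a library was left out, 11 to 12 protein-coding, 1 to 2 rRNA and 0 to 1 tRNA genes were called higher, and 1 to 2 on the minus strand. Relative to the 13-gene sum, 2 genes were called with the stricter filter of 5 CPM in 3 libraries, 3 with the replicate block and 1 to 2 with a library left out. Those left-out values ran from -0.0083 to 0.032 for MT-RNR2, -0.0053 to 0.030 for MT-CO3, -0.022 to 0.011 for MT-ND5, -0.014 to 0.0034 for MT-ND4 and -0.15 to 0.039 for MT-TP. The group difference in the log2 rRNA ratio ran from -0.0164 to 0.0253 and that of the tRNA ratio from -0.17 to 0.052. The difference in mitochondrial share was 0.48 points with all entries as denominator and 0.58 with TMM library sizes. The cause of these shifts was not tested. Ratios within the genome have no such denominator, and their alternative without rRNA genes was not run.

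Replicate numbers were not treated as pairs. Deviations of same-numbered libraries correlated at 0.164, 0.077 and 0.0635, and each library correlated best with its own number, a hint from the data and not from the design. With the replicate block all 13 protein-coding genes were called, nuclear-list genes called higher rose from 9 to 16, and calls over all genes went from 3443 higher and 3207 lower to 4466 and 4226. Relative to the 13-gene sum, MT-ND6 and MT-CYB then passed as well (edgeR adjusted p = 0.0111 and 0.0187). With 7 reads in all, MT-TF could not be compared between the groups.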
